A study of Mus musculus with 6 samples.

Results

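Bone marrow-derived macrophages (BMDMs) were compared with and without zoledronic acid (ZA), a nitrogen-containing bisphosphonate that blocks bone resorption, for 10 genes of the Nrf2 antioxidant pathway. The genes were chosen by symbol, with earlier results of these data known: Nfe2l2, Keap1, Nqo1, Gclc, Gclm, Txnrd1, Srxn1, Slc7a11, Prdx1 and Gsr. All 10 were found among the 35389 genes whose values could be read from the deposited table, and 8 of them were among the 9800 genes tested. The cells were grown from femoral marrow of C57BL/6 mice for 7 days in 10 ng/ml M-CSF, the growth factor that drives macrophage differentiation, and both groups share this background. The Ctrl group comprised 3 libraries without ZA, and the ZA group 3 libraries taken 12 h after stimulation. The study's wild-type C57BL/6 mice were obtained as females at 6 weeks of age, and neither the age at which marrow was taken nor the ZA concentration used for these libraries is given in the sources used here. RNA abundance was measured by paired-end sequencing and deposited as FPKM, that is, fragments scaled to the length of the gene and to all fragments of the library. Between 41230600 and 42155808 fragments per library were recovered from these values. Nothing in the labels says that replicates came from separate animals or cultures, so the p-values measure the spread between these libraries, which may be technical. In bulk RNA, fewer cells with a transcript and less transcript per cell cannot be told apart.

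Nrf2, the protein encoded by Nfe2l2, is a transcription factor that is made continuously and destroyed continuously. Keap1 holds it in a ubiquitin ligase complex built on Cul3, and oxidants or electrophiles that modify cysteines of Keap1 let Nrf2 escape, enter the nucleus and pair with a small Maf protein at antioxidant response elements. Its targets supply glutathione, reduce thioredoxin and peroxiredoxins, provide NADPH and detoxify quinones and heme. In macrophages the pathway is known for limiting oxidative damage during the respiratory burst and for restraining inflammatory gene expression. Because Nrf2 is controlled mainly by degradation, the RNA of its targets is often read as a measure of its activity, although several of them also answer to other factors.

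To show the kind of element for which the pathway is known, the start regions of the genes were searched on both strands for TGACNNNGC, the core of the antioxidant response element. RefSeq windows (build GRCm38.p6) that run from 250 bases before to 50 bases after each start were at hand for 8 of the 10 genes, with no window for Gclc and Gsr. The core was present in 5 of the 10 windows of these genes, 1 each for Nfe2l2, Gclm, Prdx1, Txnrd1 and Srxn1, and in 12.4% of all 32851 windows. Relative to the start, the match began at -240 for Nfe2l2, -134 for Gclm, -133 for Prdx1 and -92 for Txnrd1. That of Srxn1 began at 28, past the start. The matches are printed in the direction of the gene, with the matching letters in capitals, and 4 of the 5 lie on the opposite strand.
Nfe2l2, chr2:75704875-75704913, minus strand: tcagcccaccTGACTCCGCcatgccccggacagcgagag
Gclm, chr3:122245403-122245451, plus strand: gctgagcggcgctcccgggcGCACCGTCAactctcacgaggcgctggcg
Prdx1, chr4:116685446-116685494, plus strand: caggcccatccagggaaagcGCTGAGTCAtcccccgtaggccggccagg
Txnrd1, chr10:82859094-82859142, plus strand: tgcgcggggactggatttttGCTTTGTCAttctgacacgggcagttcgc
Srxn1, chr2:152105542-152105570, plus strand: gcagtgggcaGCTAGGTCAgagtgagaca
The Prdx1 match reads TGACTCAGC on its own strand, and that of Gclm reads TGACGGTGC. For Txnrd1 the match stands in 1 of 3 annotated start regions. The windows of Keap1, Nqo1 and Slc7a11 held no such letters, which says nothing of sites outside these windows. A match is a description of the letters only, and no binding was measured.

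The 10 genes covered more than 3 orders of magnitude in level. Prdx1, which encodes a cytosolic peroxiredoxin, stood first at a mean of 721.4 FPKM over the 6 libraries and ranked 60 among all genes of the table. Nfe2l2 followed at 140.0 FPKM, and Txnrd1, Srxn1, Gclm, Gsr and Keap1 lay between 41.9 and 16.2 FPKM. Gclc reached 8.14 FPKM, whereas Slc7a11 and Nqo1 were expressed at low levels, with means of 0.888 and 0.561 FPKM. Each gene was above the next in this order in 6 of 6 libraries, and only the ranges of the neighbours Gclm and Gsr overlapped. Nqo1, often used as the indicator gene of Nrf2 activity, was represented by 62 to 96 fragments per library, against 41585 to 43953 for Prdx1.

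**Figure D1:**
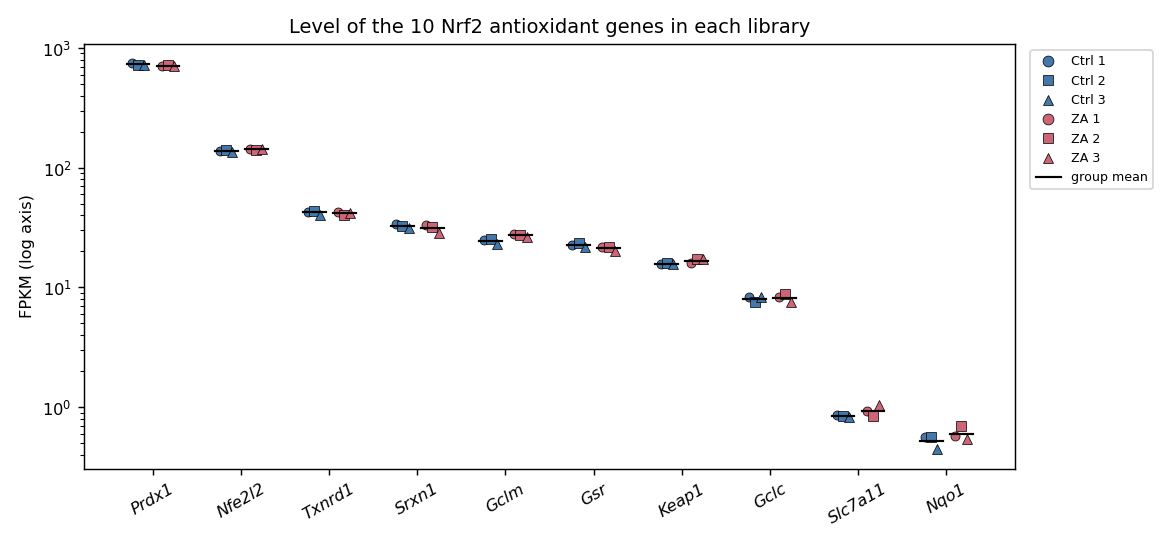
FPKM of the 10 Nrf2 antioxidant genes on a log axis, ordered by mean level, with 1 point for each library (Ctrl in blue, ZA in red, marker shape by replicate number) and a line at each group mean. Prdx1 lies near 721.4 FPKM and Nqo1 near 0.561 FPKM, and for every gene the spacing to most other genes is far wider than the distance between its Ctrl and ZA points.

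None of the 8 tested genes passed an adjusted p-value of 0.05 in limma with Benjamini-Hochberg adjustment over 9800 genes, a rule under which 0.367% of all genes were called. The mean was higher in ZA for 4 of the 8 (Gclm, Keap1, Nfe2l2 and Gclc) and lower for 4 (Txnrd1, Prdx1, Srxn1 and Gsr), and 56.9% of all genes tested had a higher mean in ZA. Their median log2 fold change was -0.00189, and that of all genes tested was 0.01. With limma's voom on the recovered fragments, a second fit, the number called was again 0. At an unadjusted p-value of 0.05, ZA exceeded Ctrl for 3 of the 8 genes and fell short of it for 0, where the shares of all genes were 7.5% and 4.85%. The same 3 genes, Gclm, Keap1 and Nfe2l2, were those whose groups did not overlap, all higher in ZA, a separation found in that direction for 11.4% of all genes and in either direction for 18.1%. This count depended on the scaling and on single libraries. After centring of each library on its median, the 8 genes gave 1 higher (Gclm) and 1 lower (Gsr), and all genes gave 508 higher and 664 lower in place of 735 and 475. Without Ctrl 3 the genes were again Gclm as higher and Gsr as lower, and without Ctrl 1, ZA 2 or ZA 3 only Gclm was left. Gclm was the 1 gene at an unadjusted p-value under 0.05 in each of these fits.

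The regulator and its inhibitor were both slightly higher in ZA. Nfe2l2 measured 137, 140 and 136 FPKM in Ctrl and 143, 141 and 143 FPKM in ZA. The 3 ZA libraries lay above the 3 Ctrl libraries, and the narrow gap was between Ctrl 2 at 139.8 and ZA 2 at 141.3 FPKM. The mean was 3.64% higher in ZA, and the log2 fold change was 0.05 with a 95% confidence interval from 0.00249 to 0.10 (SE 0.02, unadjusted p = 0.0416, adjusted p = 0.383 in limma with Benjamini-Hochberg adjustment). Keap1, the adaptor that presents Nrf2 for degradation, measured 15.6, 15.9 and 15.6 FPKM in Ctrl and 15.98, 17.2 and 17.2 FPKM in ZA. Its groups did not overlap, although ZA 1 exceeded the highest Ctrl library only narrowly. The mean was 6.69% higher (log2 fold change 0.09, 95% confidence interval 0.01 to 0.17, SE 0.04, adjusted p = 0.369 in limma with Benjamini-Hochberg adjustment). The ratio of Nfe2l2 to Keap1 FPKM was 8.75 ± 0.0431 for Ctrl and 8.51 ± 0.381 for ZA (SD, n = 3 each), and the groups were not separated (two-sided exact permutation test, p = 0.4, Benjamini-Hochberg adjusted p = 0.75 over 6 ratios). With 3 libraries against 3, the smallest p this test can give is 0.1.

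Glutathione synthesis starts with glutamate-cysteine ligase, in which Gclc encodes the catalytic and Gclm the modifier subunit. Gclm measured 25.1, 25.3 and 23.2 FPKM in Ctrl and 27.8, 27.6 and 26.1 FPKM in ZA. Every ZA library was above every Ctrl library, and the lowest libraries of the groups, Ctrl 3 and ZA 3, were those of replicate 3. With a mean 10.8% higher in ZA and a log2 fold change of 0.14 (95% confidence interval 0.05 to 0.24, SE 0.04), it had the smallest p-value of the 10 genes, at an unadjusted p of 0.00700 and an adjusted p of 0.209 in limma with Benjamini-Hochberg adjustment. Over the alternative settings its adjusted p ranged from 0.0648 to 0.447, and its log2 fold change from 0.11 to 0.17. Gclc behaved otherwise, with 8.27, 7.53 and 8.39 FPKM in Ctrl and 8.38, 8.74 and 7.56 FPKM in ZA. These groups overlapped almost fully, and the extreme values came from Ctrl 2 and ZA 3 at the low end and ZA 2 at the high end. The log2 fold change was 0.02 (95% confidence interval -0.11 to 0.16, adjusted p = 0.901 in limma with Benjamini-Hochberg adjustment), and it was -0.02 without Ctrl 2 and -0.02 without ZA 2. The ratio of Gclm to Gclc was 3.05 ± 0.294 for Ctrl and 3.31 ± 0.151 for ZA, each over 3 libraries with the SD (two-sided exact permutation test, p = 0.3), so that a difference between the subunits was not resolved.

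Slc7a11 encodes the cystine-importing subunit of system xc-, which brings in the precursor of cysteine for glutathione. It measured 0.852, 0.846 and 0.832 FPKM in Ctrl and 0.920, 0.838 and 1.04 FPKM in ZA, from 326 to 412 fragments per library. The Ctrl values lay close together, ZA 2 fell among them and ZA 1 and ZA 3 were above them. Its mean over the 6 libraries was under the minimum of 1 FPKM for the test, and a two-sided exact permutation test of the 6 values gave p = 0.3. The mean FPKM was 10.7% higher in ZA. When genes of any level were admitted, its log2 fold change was 0.07 on the scale of FPKM + 1 (95% confidence interval -0.05 to 0.18, adjusted p = 0.741 in limma with Benjamini-Hochberg adjustment). Its partner chain Slc3a2, which is shared with other amino acid transporters, stood at 29.2 ± 1.10 FPKM for Ctrl and 28.96 ± 0.659 FPKM for ZA (SD over 3 libraries), and its direction turned when Ctrl 1 or ZA 3 was left out.

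The thioredoxin branch reduces peroxides through peroxiredoxins, which are in turn reduced by thioredoxin and thioredoxin reductase. Prdx1 measured 745, 727 and 715 FPKM in Ctrl and 712, 715 and 713 FPKM in ZA. The ZA libraries were tightly grouped at the lower edge of the Ctrl range, and ZA 2 lay above Ctrl 3 by less than 1 FPKM. The mean was lower by 2.11% of Ctrl, with a log2 fold change of -0.03 (95% confidence interval -0.08 to 0.02, adjusted p = 0.590 in limma with Benjamini-Hochberg adjustment). Among the 6 peroxiredoxins Prdx1 made up 71.3% to 72.5% of the summed FPKM in Ctrl and 71.3% to 71.7% in ZA.

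Txnrd1, the cytosolic selenoprotein that returns thioredoxin to its reduced form with NADPH, measured 43.0, 43.7 and 40.3 FPKM in Ctrl and 42.6, 40.2 and 41.6 FPKM in ZA. The groups overlapped, with Ctrl 3 and ZA 2 as the lowest libraries, and the log2 fold change was -0.03 (95% confidence interval -0.11 to 0.06, adjusted p = 0.797 in limma with Benjamini-Hochberg adjustment). Srxn1 encodes sulfiredoxin, which repairs peroxiredoxins after overoxidation. It measured 34.0, 32.8 and 31.2 FPKM in Ctrl and 33.1, 32.2 and 28.6 FPKM in ZA. Only ZA 3 lay below the Ctrl range, and the log2 fold change of -0.06 had a 95% confidence interval from -0.19 to 0.06 (adjusted p = 0.691 in limma with Benjamini-Hochberg adjustment). The ratios of Prdx1 to Srxn1, Prdx1 to Txnrd1 and Txn1 to Txnrd1 gave two-sided exact permutation p-values of 0.8, 1.0 and 0.5.

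Gsr encodes glutathione reductase, which regenerates reduced glutathione. It measured 22.5, 23.4 and 21.7 FPKM in Ctrl and 21.5, 21.9 and 20.2 FPKM in ZA. ZA 1 and ZA 3 were below all Ctrl libraries, and ZA 2 was above Ctrl 3 alone. The mean was lower by 5.83% of Ctrl, with a log2 fold change of -0.08 (95% confidence interval -0.17 to 0.01, SE 0.04, adjusted p = 0.452 in limma with Benjamini-Hochberg adjustment), the most negative of the 8 tested genes. Nqo1, the quinone reductase, measured 0.566, 0.560 and 0.443 FPKM in Ctrl and 0.572, 0.689 and 0.538 FPKM in ZA. ZA 2 was the highest library and Ctrl 3 the lowest, and the other 4 lay between 0.538 and 0.572 FPKM. The summed fragments were 219 in Ctrl and 251 in ZA, counting alone gives an error between 10.2% and 12.7% for a library at these depths, and the two-sided exact permutation test gave p = 0.4. The mean FPKM was 14.7% higher in ZA. When genes of any level were admitted, the log2 fold change of Nqo1 was 0.07 on the scale of FPKM + 1, which shrinks the difference of so low a gene (95% confidence interval -0.06 to 0.20, adjusted p = 0.759 in limma with Benjamini-Hochberg adjustment).

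**Figure D2:**
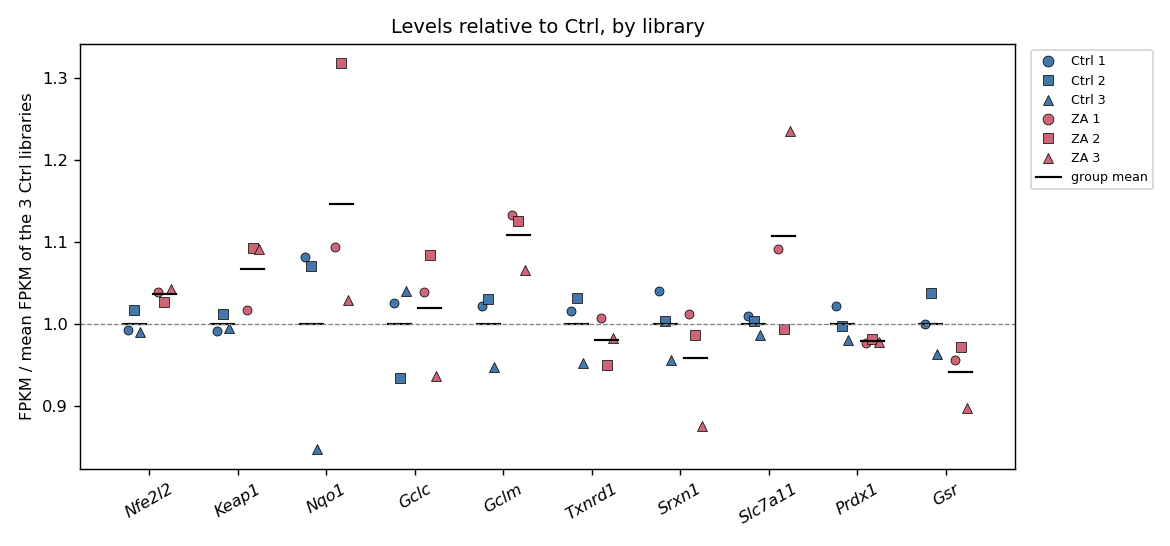
FPKM of each of the 10 genes divided by the mean of its 3 Ctrl libraries, with 1 point for each library (Ctrl in blue, ZA in red, marker shape by replicate number), a line at each group mean and a dashed line at 1. The 3 ZA points lie above the 3 Ctrl points for Nfe2l2, Keap1 and Gclm, and the points of the groups overlap for the other 7 genes.

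The libraries did not contribute evenly to these patterns. Ctrl 3 was the lowest Ctrl library for 8 of the 10 genes, with Keap1 lowest in Ctrl 1 and Gclc lowest in Ctrl 2. Among the ZA libraries, ZA 3 was the lowest for 5 genes and the highest for 2. Within groups the coefficient of variation was smallest for Prdx1 in ZA (0.225%) and largest for Nqo1 in Ctrl (13.2%). For Slc7a11 it was 1.22% in Ctrl and 10.97% in ZA.

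**Figure D3:**
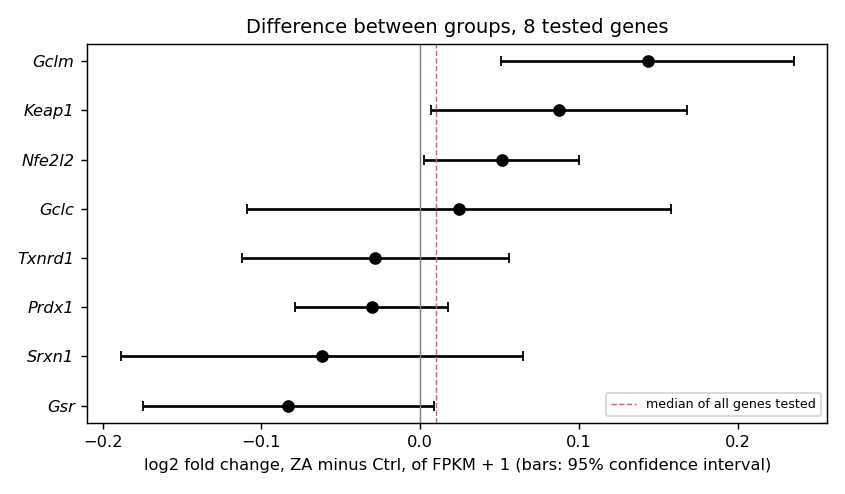
Log2 fold change (ZA minus Ctrl, of FPKM + 1) of the 8 tested genes as points with bars for the 95% confidence interval, with a grey line at 0 and a dashed line at 0.01, the median of all genes tested. The intervals of Gclm, Keap1 and Nfe2l2 lie above 0 before adjustment, and the other 5 intervals include 0.

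When the 9799 other tested genes were ranked by how closely their log2 values followed those of Nfe2l2 around the mean over the 6 libraries, Abhd8, Hsp90ab1 and Mycbp2 were nearest. Their root mean square differences from Nfe2l2 were 0.00385, 0.00764 and 0.00854 on the log2 scale. Abhd8, an abhydrolase-domain gene, rested on 733 to 786 fragments per library. Hsp90ab1, a cytosolic chaperone, measured 329, 332 and 326 FPKM in Ctrl and 339, 338 and 344 FPKM in ZA. At a much looser limit of 0.05, 4020 of the 9799 genes were near Nfe2l2. Nfe2l2 itself varied little, from 136.2 to 143.4 FPKM, so a gene with nearly constant values can also fall within that limit. The count therefore does not say how many genes followed Nfe2l2 as closely as the 3 named.

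Around the 10 genes, 116 further genes of the pathway and of oxidant production were examined in 7 groups, of which 94 were tested. In none of these groups did a gene pass the adjusted threshold in limma, whereas 4 of the 94 passed it with voom on the recovered fragments, by which 1.35% of all genes were called. An unadjusted p-value under 0.05 was reached by 13 genes with more RNA in ZA and by 8 with less, beside 7.5% and 4.85% of all genes. The groups did not overlap for 19 genes that were higher and 9 that were lower, beside 11.4% and 6.76% of all genes. Of the 94 genes 46 had a higher and 48 a lower mean, with a median of -0.00108 on the log2 scale.

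Among the regulators of Nrf2, 12 genes were tested, 7 with a higher and 5 with a lower mean, and 2 were higher at an unadjusted p-value of 0.05, as were 7.5% of all genes. These were Pgam5, a mitochondrial phosphatase that binds Keap1, and Nfe2l1, which encodes a relative of Nrf2. Pgam5 measured 11.6, 11.4 and 11.4 FPKM in Ctrl and 12.5, 12.5 and 13.0 FPKM in ZA (log2 fold change 0.13, SE 0.03, adjusted p = 0.131 in limma with Benjamini-Hochberg adjustment). Nfe2l1 measured 36.8, 35.7 and 35.4 FPKM in Ctrl and 39.0, 38.9 and 38.2 FPKM in ZA (log2 fold change 0.10, adjusted p = 0.172 by the same fit). Both were separated without overlap. The ligase scaffold Cul3 (log2 fold change 0.01), the small Maf partner Mafg (0.02) and the autophagy receptor Sqstm1 (-0.00193), which competes for Keap1, were close to 0, although Cul3 turned lower with centring of libraries or quantile normalization, and Sqstm1 turned higher with quantile normalization. Mafk, another small Maf, measured 4.52, 4.42 and 4.49 FPKM in Ctrl and 4.33, 4.17 and 4.29 FPKM in ZA, lower without overlap (log2 fold change -0.06, adjusted p = 0.567 in limma with Benjamini-Hochberg adjustment). Bach1, a repressor at the same elements, had a log2 fold change of 0.06, and its groups overlapped.

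Genes of glutathione supply and use had 5 higher and 11 lower means among 16 tested genes, where 56.9% of all genes had a higher mean. Their median log2 fold change was -0.02. Gpx3, a secreted glutathione peroxidase, measured 144, 140 and 138 FPKM in Ctrl and 137, 133 and 125 FPKM in ZA, without overlap (log2 fold change -0.10, adjusted p = 0.318 in limma with Benjamini-Hochberg adjustment). Glrx, a glutaredoxin, had a log2 fold change of -0.14 with overlapping groups, and Hagh, which completes methylglyoxal detoxification, one of 0.09 without overlap. Gss, the enzyme of the last step of glutathione synthesis, had a log2 fold change of -0.06 with an adjusted p of 0.605 in the same limma fit.

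Of 15 tested genes of the thioredoxin and peroxiredoxin system, 9 had a higher and 6 a lower mean. Txn1, thioredoxin itself, measured 158, 149 and 153 FPKM in Ctrl and 140, 148 and 143 FPKM in ZA, so that ZA was lower without overlap (log2 fold change -0.09, SE 0.03, adjusted p = 0.301 in limma with Benjamini-Hochberg adjustment). Its inhibitor Txnip measured 164, 168 and 167 FPKM in Ctrl and 183, 176 and 173 FPKM in ZA, higher without overlap (log2 fold change 0.09, SE 0.03, adjusted p = 0.205 by the same fit). Txnrd3 had a log2 fold change of 0.13 and a level near 2 FPKM.

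Among genes that supply NADPH, the reducing equivalent used by Txnrd1, Gsr and Nqo1, 7 of 11 tested genes had a higher mean, beside 56.9% of all genes, and 5 were higher without overlap, beside 11.4% of all genes. Nadk, the kinase that makes NADP from NAD, measured 78.3, 80.4 and 81.8 FPKM in Ctrl and 87.6, 90.2 and 93.8 FPKM in ZA. Its mean was 12.9% higher, with a log2 fold change of 0.17 (95% confidence interval 0.10 to 0.24, SE 0.03) and an adjusted p of 0.0762 in limma with Benjamini-Hochberg adjustment, the smallest among the 94 genes. It was called, at an adjusted p of 0.0115, when limma's voom was applied to the recovered fragments, and over all alternatives its adjusted p ranged from 0.0115 to 0.267. G6pdx, which opens the pentose phosphate pathway, had a log2 fold change of 0.06 without overlap, and Idh2 one of -0.09 with overlap.

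Heme and quinone detoxification genes were divided, with 7 higher and 10 lower means among 17 tested, where 56.9% of all genes had a higher mean. Hmox1, which encodes the inducible heme oxygenase and is a well known target of Nrf2 and Bach1, measured 226, 216 and 215 FPKM in Ctrl and 202, 197 and 199 FPKM in ZA. The mean was lower by 8.98% of Ctrl, the groups did not overlap, and the log2 fold change was -0.13 (95% confidence interval -0.19 to -0.08, SE 0.03, adjusted p = 0.0921 in limma with Benjamini-Hochberg adjustment). With voom on the recovered fragments Hmox1 was called, and over all alternatives its adjusted p ranged from 0.0277, the voom value, to 0.268. Blvrb, a biliverdin reductase, lay on the other side with a log2 fold change of 0.09 without overlap. Ptgr1, a prostaglandin and alkenal reductase, had one of -0.10 without overlap. Of 13 tested glutathione S-transferases, which share near-identical copies between which fragments may be divided, 10 had a lower mean, and the median log2 fold change was -0.05. The membrane-bound Mgst1 measured 96.0, 93.2 and 94.9 FPKM in Ctrl and 90.9, 88.6 and 88.0 FPKM in ZA (adjusted p = 0.209 in limma with Benjamini-Hochberg adjustment). Mgst3 was also lower without overlap (log2 fold change -0.13), and Gstz1 had a log2 fold change of 0.14 with overlapping groups.

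**Figure D4:**
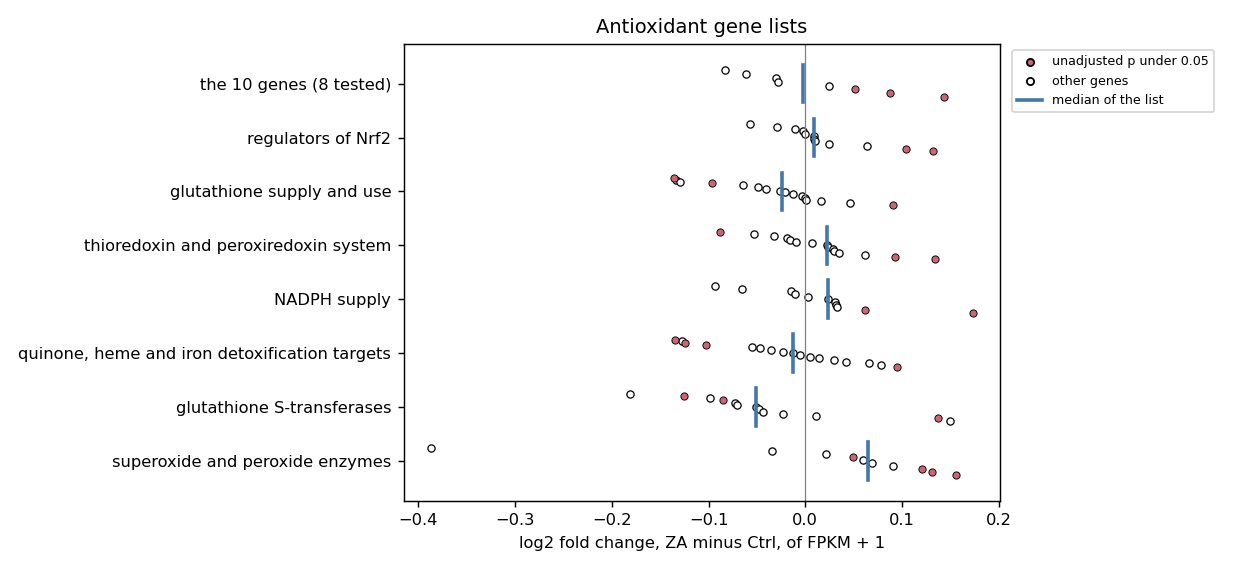
Log2 fold change (ZA minus Ctrl, of FPKM + 1) of each tested gene, for the 10 Nrf2 antioxidant genes and the 7 further groups, with filled points for an unadjusted p-value under 0.05 and a bar at the median of each group. The medians lie between -0.05 for the glutathione S-transferases and 0.06 for the superoxide and peroxide enzymes, and no gene passed the adjusted threshold.

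The enzymes that make or remove superoxide and peroxide showed the highest median log2 fold change of the 7 groups, 0.06, with 8 of 10 tested genes higher, beside 56.9% of all genes. An unadjusted p-value under 0.05 was reached by 4 of the higher genes (Cybb, Ncf1, Ncf4 and Cat), beside 7.5% of all genes. Cybb, the catalytic chain of the phagocyte NADPH oxidase, measured 276, 273 and 280 FPKM in Ctrl and 300.2, 298.7 and 326 FPKM in ZA (log2 fold change 0.16, SE 0.03, adjusted p = 0.113 in limma with Benjamini-Hochberg adjustment). Its cytosolic subunit Ncf1 measured 167, 166 and 165 FPKM in Ctrl and 177, 179 and 185 FPKM in ZA (log2 fold change 0.12, SE 0.02, adjusted p = 0.0884 by the same fit). Both were called with voom on the recovered fragments, at adjusted p-values of 0.0272 and 0.0267, the lowest over the alternatives, which reached up to 0.35 and 0.287. Ncf4, a further subunit, had a log2 fold change of 0.13 without overlap, and Cyba, the partner chain of Cybb, one of -0.03, lower without overlap. Sod3, the extracellular superoxide dismutase, had the most negative value of the group (log2 fold change -0.39, 95% confidence interval -0.83 to 0.06) at 3.26 to 7.32 FPKM, with overlapping groups. Cybb made up 15.9% to 16.4% of the summed FPKM of 6 oxidase subunits in Ctrl and 17.2% to 18.3% in ZA. Cat, the gene of catalase, measured 200, 197 and 197 FPKM in Ctrl and 206, 204 and 204 FPKM in ZA, higher without overlap (log2 fold change 0.05, unadjusted p = 0.0348, adjusted p = 0.362 in limma with Benjamini-Hochberg adjustment). Sod2, the mitochondrial superoxide dismutase, measured 17.8, 16.7 and 17.7 FPKM in Ctrl and 18.0, 18.3 and 19.5 FPKM in ZA, which was higher without overlap (log2 fold change 0.09, unadjusted p = 0.0529, adjusted p = 0.412 in limma with Benjamini-Hochberg adjustment).

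**Figure D5:**
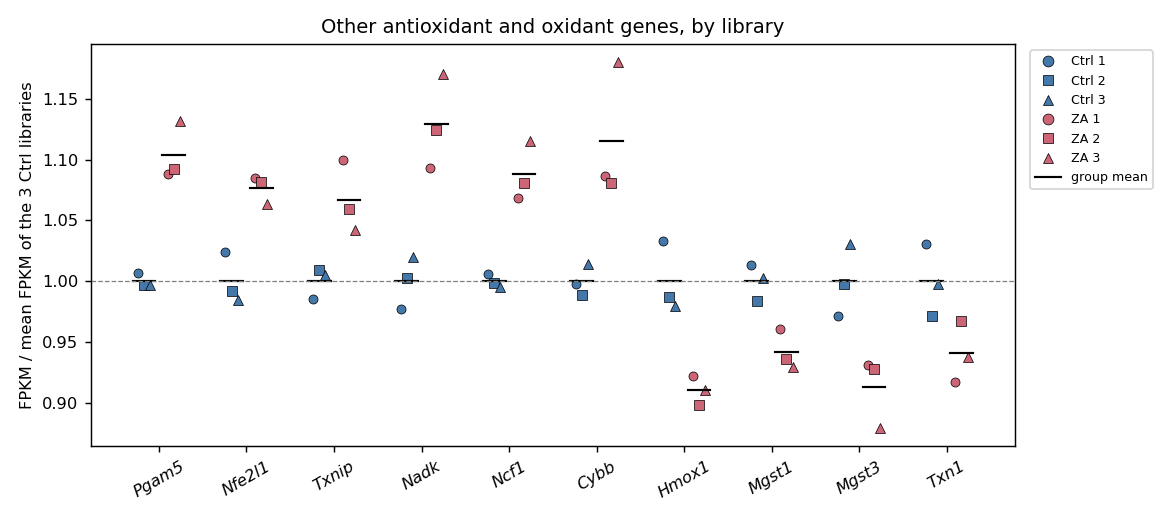
FPKM of 10 further genes divided by the mean of the 3 Ctrl libraries, with 1 point for each library (Ctrl in blue, ZA in red, marker shape by replicate number), a line at each group mean and a dashed line at 1. Pgam5, Nfe2l1, Txnip, Nadk, Ncf1 and Cybb lie above 1 in all 3 ZA libraries, and Hmox1, Mgst1, Mgst3 and Txn1 lie below it. None passed the adjusted threshold, with adjusted p-values from 0.0762 to 0.301 in limma.

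Markers of macrophages and of other marrow cells were read in the same libraries. The 8 macrophage markers summed to between 23600 and 27500 FPKM in Ctrl and between 24500 and 28000 FPKM in ZA. Most of this sum was Lyz2, at 20472 to 24406 FPKM in Ctrl and 21272 to 24669 FPKM in ZA. Of the 8 markers, 7 had a higher mean in ZA, beside 56.9% of all genes. The log2 fold changes of Csf1r (0.11), Cd14 (0.12), Adgre1 (0.13) and Fcgr1 (0.13) were of the size seen for Gclm, Ncf1 and Cybb. Those of Cd68 (0.02), Itgam (0.03), Lyz2 (0.03) and Mertk (-0.03) were nearer to no change. The groups overlapped for Itgam, Lyz2, Fcgr1 and Mertk, and ZA was higher without overlap for Csf1r, Adgre1, Cd14 and Cd68. The adjusted p-values of Csf1r and Adgre1 were 0.0701 and 0.0785 in limma with Benjamini-Hochberg adjustment, near the smallest among the 94 further genes (Nadk, 0.0762). The 9 neutrophil markers summed to between 32.6 and 47.6 FPKM in Ctrl and between 29.4 and 34.5 FPKM in ZA, and Ly6g was at 0 in every library. All 5 tested ones had a lower mean, where 56.9% of all genes had a higher one. Mpo (log2 fold change -0.38), Elane (-0.27) and Ngp (-0.27) were lower without overlap, as were 6.76% of all genes. The groups overlapped for S100a8 and S100a9. Neutrophils also express the oxidase genes, which were higher in ZA. The 6 fibroblast markers summed to between 18.3 and 32.8 FPKM in Ctrl and between 16.6 and 23.6 FPKM in ZA, with all 4 tested ones lower. Markers of lymphocytes (6 genes), erythroid cells (8 genes, Slc4a1 at 0) and dendritic cells (5 genes) summed to at most 2.72 FPKM in any library. No marker passed the adjusted threshold in limma, and the part of these shifts in the values of the antioxidant genes was not tested.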

How the data were processed

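BMDM RNA was sequenced as 150 bp paired-end reads on an Illumina NovaSeq by OE Biotech. The labels name a VAHTS and also a SMARTER library kit, and genome build mm9 in the submitters' processing notes. The aligner, counting program and annotation are not given in the sources used here. The authors deposited 1 table of FPKM, in which symbols and values run together in all but 11 of 35434 rows. Where the number format left a single reading it was taken (23773 rows), and elsewhere the cut was set by the rule that each FPKM is a whole number of fragments scaled by gene length and library total (11616 rows). The 45 unresolved rows, among them Nfe2l3, were left out, the 11 intact rows and 3000 of 3000 simulated rows were restored exactly, and restored genes hold 99.7% of each library.

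The log2(FPKM + 1) values entered limma 3.58.1, run in R 4.3.3 (linear model on 6 libraries, empirical Bayes with a trend, two-sided) for the 9800 genes with a mean of at least 1 FPKM, with Benjamini-Hochberg adjustment. Fold changes on this scale understate those of low genes. The median was 1395 fragments per tested gene and library, and intervals from counts cover counting error only. On simulated data, 97.5% of 200 genes changed 2-fold among 9797 were called, with 9 unchanged genes called, and 2 were called among 9800 without change. Changes as small as those seen for the 10 genes were not simulated, so their recovery is not known. Single values and ratios were compared with exact permutation tests. The 10 genes and the gene groups were chosen with earlier results of these data known. Named beyond the 10 genes were the 3 smallest p-values of each group, fixed genes of known role (Txn1, Gss, Slc3a2, Hmox1, Sod2, Cul3, Bach1, Mafg and Sqstm1) and the 3 nearest to Nfe2l2. Cyba, Sod3, Cat, Mafk and the single macrophage and neutrophil markers were named after their values were seen. The alternatives were a pseudocount of 0.1, no filter, a minimum of 5 FPKM, centring, quantile normalization, no variance trend, a replicate block, voom and leaving out each library. Python 3.11.15, NumPy 2.4.6, pandas 2.3.3 and Matplotlib 3.10.9 were used.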

Additional observations from a re-analysis of the deposited data

How the results depend on the processing

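For the 10 Nrf2 antioxidant genes the count at an adjusted p-value of 0.05 was 0 under every alternative run, and the count at an unadjusted p-value of 0.05 was 3 as reported and between 1 and 2 when a library was left out. It was 2 with centring (1 higher, 1 lower), 2 with quantile normalization and 2 without a variance trend. Over all genes, 36 were called as reported, 1 without a filter on low values, 20 with quantile normalization, 1 with a variance prior without a trend, 132 with voom on the recovered fragments and, without a library, 1 (Ctrl 1), 1 (Ctrl 2), 6 (Ctrl 3), 25 (ZA 1), 0 (ZA 2, where 973 had an unadjusted p under 0.05) and 4 (ZA 3). Among the other antioxidant genes 0 were called as reported and 4 with voom, namely Nadk, Hmox1, Ncf1 and Cybb. At an unadjusted p-value of 0.05, 735 genes were higher and 475 lower as reported, 508 and 664 after centring of each library on its median, and 574 and 589 with quantile normalization. Those settings did not turn the direction of a tested member, whereas Gclc turned to -0.0187 without Ctrl 2 and -0.0161 without ZA 2, in a range up to 0.0776. Direction also turned for genes near 0. Cul3 was at -0.00348 with centring, -0.00493 with quantile normalization and between -0.0057 and 0.0284 without a library. Sqstm1 was at 0.0161 with quantile normalization and between -0.015 and 0.00857 without a library. Slc3a2 ranged from -0.0391 to 0.0132 without a library. For the replicate block, libraries of the same number had deviations that correlated at 0.284 (number 1), 0.0393 (number 2) and 0.28 (number 3). Libraries of unlike number gave correlations from -0.297 (Ctrl 1 with ZA 3) to 0.0334 (Ctrl 2 with ZA 3). Deviations from a mean of 3 libraries sum to 0 within a group, so these correlations are not independent of each other. Whether libraries of the same number share a source was not tested. The labels do not say that the numbers pair the libraries, and the fit as reported has no block. With the block 78 genes were called over all genes and 1 among the other antioxidant genes (Nadk, adjusted p = 0.0343 in limma), Gclm had an adjusted p of 0.0648, and at an unadjusted p-value of 0.05 Keap1 and Gclm were higher and Gsr lower. Leaving out a library leaves 2 against 3, and depth limits Nqo1 and Slc7a11 most.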
